A study of Mus musculus with 2 samples.

Results

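Nr5a2, Bhlha15 and Xbp1 encode transcription factors that act in the acinar cell of the pancreas, and binding of Ptf1a was examined across 1 genomic window for each gene. On build mm9 these windows were chr1:138640000-138960000 for Nr5a2 (320 kb), chr5:144880000-145020000 for Bhlha15 (140 kb) and chr11:5350000-5500000 for Xbp1 (150 kb). The members were the positions of the authors' deposited list of Ptf1a peaks that fell inside a window, called listed sites here. There were 34 of 30691, with 16 in the Nr5a2 window, 10 in the Bhlha15 window and 8 in the Xbp1 window. The windows were set by gene and not by read counts, though members were chosen with earlier results of these data known.

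Binding was measured by chromatin immunoprecipitation and sequencing (ChIP-seq) in 266.6 cells, pancreatic cells of mouse strain C57BL/6 X SJL at passage 26, which the study took as a stand-in for the dorsal pancreas of the early embryo. The ChIP library was made with a Ptf1a antibody from 2 immunoprecipitations that were combined, and the input library from chromatin of the same line without antibody. Both groups shared the cell line, its passage and fixation in 1% formaldehyde for 10 min, and no genetic or drug treatment was applied to either. With 1 library per group there was no replicate, so each test below compares the reads of these 2 libraries, and each interval covers counting error only. The ChIP library held 28502488 placed reads and the input library 27959618, of which 10.2% and 3.29% repeated the position and strand of another read.

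Ptf1a is a basic helix-loop-helix factor that binds DNA as part of the trimeric PTF1 complex, together with a common bHLH partner and either Rbpj or its acinar relative Rbpjl. The complex recognises an E-box (CANNTG) close to an Rbpj-type core (TGGGAA). In acinar cells PTF1 drives the genes of the digestive enzymes. Nr5a2, also called LRH-1, is a nuclear receptor that works with PTF1 at acinar genes. Bhlha15, also called Mist1, is a bHLH factor that organises the regulated secretion of mature acinar cells, and Xbp1 is a leucine zipper factor of the unfolded protein response that enlarges the endoplasmic reticulum of secretory cells.

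The DNA just before the annotated starts of the 3 genes shows which of these letters lie at the promoters themselves. The 250 bases before each start are from RefSeq on GRCm38.p6, a build other than mm9, so their coordinates cannot be set beside those of the sites. All 3 genes matched, with 1 start for Bhlha15, 1 for Xbp1 and 2 for Nr5a2. Each sequence reads 5′ to 3′ on the gene's own strand, and capitals mark every match to CANNTG or TGGGAA on either strand.
Nr5a2, chr1:136960449-136960698, minus strand: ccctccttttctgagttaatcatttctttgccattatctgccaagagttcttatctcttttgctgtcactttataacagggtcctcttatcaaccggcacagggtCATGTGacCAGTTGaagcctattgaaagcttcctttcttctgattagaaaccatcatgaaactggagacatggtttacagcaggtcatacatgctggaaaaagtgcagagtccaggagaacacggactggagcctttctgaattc
Nr5a2, chr1:136953631-136953880, minus strand: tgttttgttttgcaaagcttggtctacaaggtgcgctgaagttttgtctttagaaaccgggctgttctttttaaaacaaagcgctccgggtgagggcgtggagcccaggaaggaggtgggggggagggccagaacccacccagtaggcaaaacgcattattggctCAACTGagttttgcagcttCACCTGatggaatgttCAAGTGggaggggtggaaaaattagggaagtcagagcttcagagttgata
Bhlha15, chr5:144190036-144190285, plus strand: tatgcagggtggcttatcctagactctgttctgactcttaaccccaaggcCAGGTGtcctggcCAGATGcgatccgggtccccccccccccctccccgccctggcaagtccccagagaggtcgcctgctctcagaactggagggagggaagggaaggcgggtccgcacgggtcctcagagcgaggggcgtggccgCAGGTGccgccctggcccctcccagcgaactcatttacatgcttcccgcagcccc
Xbp1, chr11:5520391-5520640, plus strand: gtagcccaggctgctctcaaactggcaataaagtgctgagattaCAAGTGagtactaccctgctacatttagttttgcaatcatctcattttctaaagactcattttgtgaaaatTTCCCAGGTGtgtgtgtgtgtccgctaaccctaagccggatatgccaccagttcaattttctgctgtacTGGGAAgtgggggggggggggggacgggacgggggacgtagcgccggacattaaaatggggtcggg

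An E-box CANNTG was present at each of these 4 starts, with 2 and 3 matches at the Nr5a2 starts, 3 at Bhlha15 and 2 at Xbp1. That motif was common, as 66.2% of 32851 RefSeq promoters held it in their 250 upstream bases. The form CAGCTG was in none of the 4 and in 13% of all promoters. The form CATCTG was found at Bhlha15 on the strand opposite to the gene's, so that the printed strand reads CAGATG, and in 14.4% of all promoters. The Rbpj-type core TGGGAA occurred at Xbp1, with 1 match on each strand, and in 21.6% of all promoters. At Xbp1 the core on the reverse strand, read as TTCCCA, shared its last 2 letters with the E-box CAGGTG, and the pair began 135 and 131 bp before the start. A match of letters is a description and not a bound site. Gene models on mm9 were not used here, so no listed site is placed in a promoter, intron or exon. In RefSeq gene order, the neighbouring protein-coding genes are Zfp281 and Ptprc for Nr5a2, Lmtk2 and Tecpr1 for Bhlha15, and Znrf3 and Ccdc117 for Xbp1, and a site in a window may lie nearer to one of them.

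Listed Ptf1a sites were several times denser in the 3 windows than over the genome. The Nr5a2 window held 0.050 sites per kb, the Bhlha15 window 0.0714 and the Xbp1 window 0.0533. Over all 1 kb bins of chromosomes 1 to 19 and X with a read, the list held 0.0126 sites per kb. Of 7884 consecutive windows of 320 kb along these chromosomes with at least 1 input read per kb, 4.25% held 16 or more listed sites, and the median held 2. Of 17992 windows of 140 kb, 2.49% held 10 or more, and of 16782 windows of 150 kb, 4.96% held 8 or more, with a median of 1 in both. These shares describe where the windows stand and are no test. Input reads were also denser there, at 15.1 reads per kb for Nr5a2, 26.2 for Bhlha15 and 16.6 for Xbp1, against 11.5 over covered bins of the genome. The part of read depth in the density of sites was not tested.

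**Figure D1:**
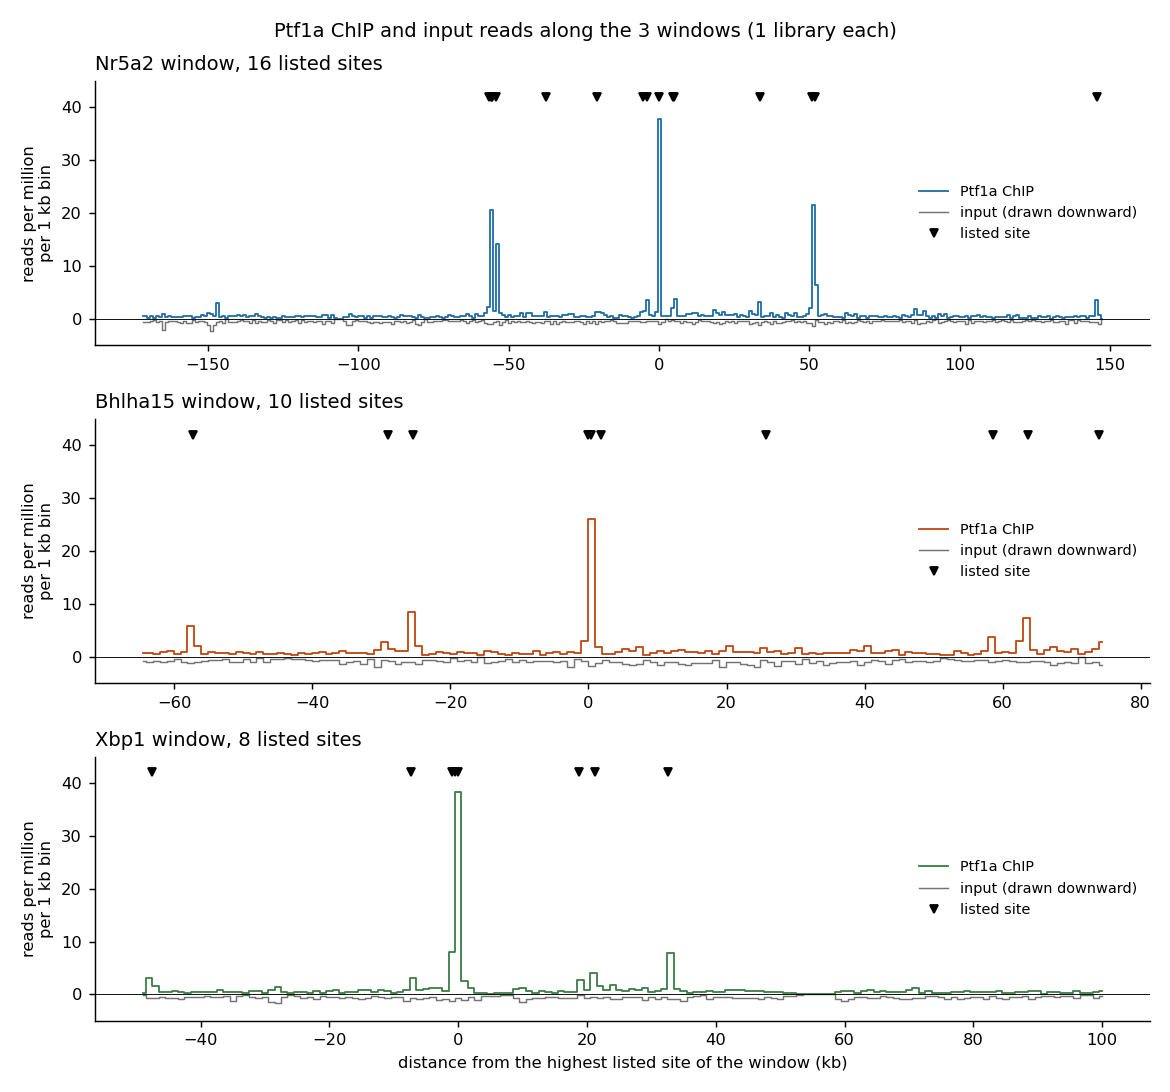
RPM (reads scaled to library depth) in each 1 kb bin of the Nr5a2, Bhlha15 and Xbp1 windows, by distance in kb from the window's highest listed site, with Ptf1a ChIP drawn upward and input downward (1 library each). Triangles mark the 16, 10 and 8 listed sites, and the tallest bins reach 37.8, 26.0 and 38.2 RPM in the ChIP library.

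Sites within 10 kb of another listed site were 12 of 16 at Nr5a2, 7 of 10 at Bhlha15 and 6 of 8 at Xbp1, against 56.1% of the list. Sites joined at that distance are called a group below. The median distance between neighbouring sites was 4077 bp at Nr5a2, 10335 bp at Bhlha15 and 6439 bp at Xbp1, against 19921 bp over the whole list. Distances ran from 143 to 93741 bp at Nr5a2, from 322 to 32799 bp at Bhlha15 and from 396 to 40193 bp at Xbp1. Neighbours within 1 kb made up 5 of 15 gaps at Nr5a2, 1 of 9 at Bhlha15 and 2 of 7 at Xbp1, against 12.1% of gaps in the list. A shorter spacing is in part the same fact as a higher density of sites.

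The Nr5a2 sites, those of the nuclear receptor, fell into 3 strong groups, with weaker single sites between them. The first group had 5 sites in 2608 bp, from 138755578 to 138758185, with heights of 30, 184, 23, 24 and 186 on the authors' scale of peak height, where the list runs from 20 to 396. How that scale and its threshold were set is not given, so heights are used to rank sites within the list. The highest site of the group, at 138758086, had 144 ChIP reads and 1 input read in its 100 bp span, a ratio of 148 after scaling (exact 95% interval 26.2 to 5897). A span runs from the listed position onward, so reads placed before the position are left out. The site at 138756186 had 216 ChIP and 4 input reads, a ratio of 55.6 (21.4 to 206). Within 100 bp to each side the ratios were 52.8 (25.4 to 132) and 99.2 (38.4 to 366), so the order of these 2 sites depends on the span. The whole stretch of that group, gaps included, held 1001 ChIP and 51 input reads, a ratio of 20.2 (15.3 to 27.3).

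The strongest Nr5a2 site lay 54.1 kb beyond that group. At 138812182 the height was 269, which placed it at rank 270 of 30691, and the span held 436 ChIP reads against 7 input reads (ratio 64.1, 30.9 to 161). It was the centre of a second group of 5 sites over 10316 bp, with heights of 28, 59, 269, 35 and 60 in order of position. The third group, 50.9 kb further on, was a pair of sites 892 bp apart at 138863104 and 138863996. Both had a height of 176, with 141 ChIP and 2 input reads in the first span and 143 and 3 in the second. Single sites of height 21 and 20 lay at 138774743 and 138791534, and one of 37 lay at 138845743. One of 61 lay apart at 138957737, 93.7 kb beyond the pair, where 43 ChIP reads faced no input read. The exact lower limit of its ratio was 11.5, and the ratio was 14.8 when the input was set to 3 reads. The outer groups thus stood at a like distance on either side of the strongest site.

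At Bhlha15, the bHLH factor of mature acinar cells, the signal was centred on a close pair of sites. The higher one, at 144945083, had a height of 232 (rank 521) with 242 ChIP reads and 1 input read in its span, a ratio of 249 (44.3 to 9884). Its partner 322 bp away, at 144945405, had a height of 136 with 113 ChIP and 8 input reads (ratio 14.5, 7.14 to 34.5). Next in height was a site 25.3 kb on the other side, at 144919736, which had a height of 107 and 140 ChIP against 4 input reads (ratio 36.0, 13.8 to 134). The remaining 7 sites had heights of 22 to 44 and stood up to 74.0 kb from the highest one. Of these, 144946882 was the lowest, with a height of 22 and 14 ChIP against 6 input reads.

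At Xbp1, the factor of the unfolded protein response, 1 site stood far above the others. At 5399501 the height was 316, rank 81 of 30691, and 0.277% of the list was as high or higher. The span held 489 ChIP reads and 3 input reads, a ratio of 168 (57.1 to 817). Next to it lay the sites at 5398604, with a height of 96 and 53 ChIP against 1 input read, and 5399000, the lowest of the window, with a height of 27 and 18 ChIP against 3 input reads. The site at 5392165 (height 49) belonged to the same group, which covered 7436 bp. A pair of sites at 5418263 and 5420771, with heights of 43 and 64, followed 18.8 and 21.3 kb beyond the highest site. The site at 5432143, height 76, had 91 ChIP reads and 1 input read (ratio 93.7, 16.4 to 3742) and was the last listed one in the window. The next lay 246 kb further on.

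**Figure D2:**
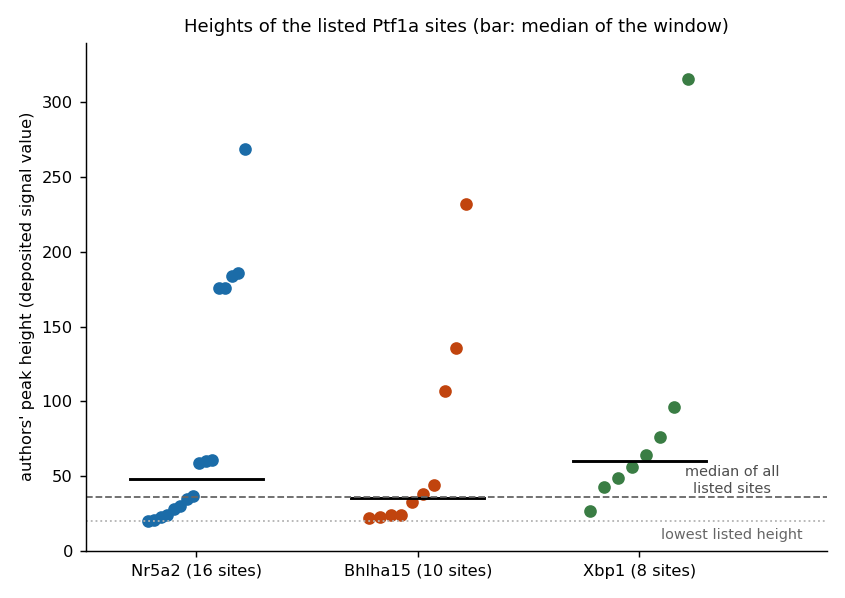
Authors' peak height (deposited signal value, linear axis) of each listed site in the 3 windows, with a bar at the median of each window and dashed and dotted lines at the median, 36, and the lowest height, 20, of all listed sites. The highest points are 269 at Nr5a2, 232 at Bhlha15 and 316 at Xbp1, and at Xbp1 the next site is at 96.

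Heights differed between the windows in their medians and in how many sites were high. The median height was 48 at Nr5a2, 35.5 at Bhlha15 and 60 at Xbp1, against 36 over the list. Heights of 100 or more were found at 5 of 16 sites of Nr5a2, 3 of 10 of Bhlha15 and 1 of 8 of Xbp1, against 13.3% of the list. Heights of 20 to 29 were found at 5, 4 and 1 sites, against 37.8% of the list. The cut at 100 fell between the third site of Bhlha15, with a height of 107, and the second of Xbp1, with 96. By distinct ChIP reads within 100 bp these 2 sites had 129 and 113, and the Xbp1 site at 5432143 had 126. A contrast of 3 high sites against 1 thus rests on the cut. The 5 high sites of Nr5a2 ranged from 267 to 990 ChIP reads within 100 bp. No test was made on these few values. The highest site with 500 bp to each side held 29.3% of the ChIP reads in excess of input at Nr5a2, 57.1% at Bhlha15 and 59.8% at Xbp1. At Bhlha15 this stretch takes in the partner site 322 bp away, so its share belongs to both. These are shares of the net excess of the window. All stretches within 500 bp of a listed position held 91.4%, 116% and 101% of that excess. The share of 57.1% at Bhlha15 is thus larger than its share of the excess near sites.

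Each of the 34 sites had more ChIP than input reads in its span, and 32 were called higher (exact two-sided binomial test, Benjamini-Hochberg adjusted over the whole list). By window these were 15 of 16 at Nr5a2, 9 of 10 at Bhlha15 and 8 of 8 at Xbp1. The share of the whole list called higher in ChIP was 91.6%, so the count at the 3 loci was near that background. The list was made from the same ChIP reads, and this excess was largely set by the listing. The exceptions were 138791534 at Nr5a2, with 11 ChIP and 3 input reads (exact binomial test, adjusted p = 0.0548), and 144946882 at Bhlha15 (adjusted p = 0.106). Within 100 bp to each side of the position, they had 25 against 7 and 27 against 13 reads, and all 34 sites then passed, as did 98% of the list.

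**Figure D3:**
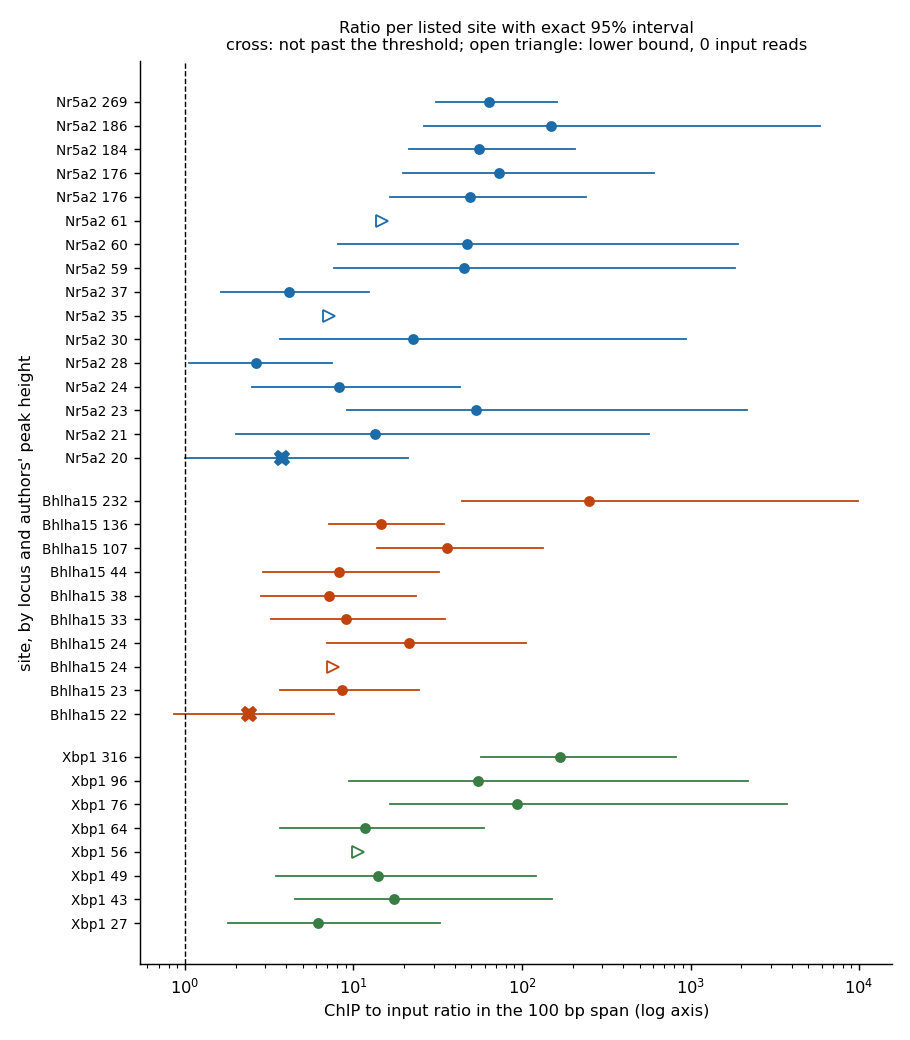
ChIP to input ratio in the 100 bp span of each of the 34 listed sites (log axis) with its exact 95% interval, ordered by height within each locus. Crosses mark the 2 sites that did not pass the test, and the dashed line a ratio of 1. Open triangles mark the 4 sites with 0 input reads, set against a floor of 3 reads, and are not 95% limits.

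The ratio of a single site was loosely fixed, because few input reads lay under it. Input counts in the span ran from 0 to 8, and 4 of the 34 sites had none. The median ratio with 0.5 reads added to each count was 34.0 at Nr5a2, 10.9 at Bhlha15 and 25.5 at Xbp1, against 10.9 over the list. Median ChIP counts were closer together, at 43.5, 42.5 and 34 reads, against 25. Median input counts were 1.5, 4 and 2 reads. In the 10 kb around a site, without its central 200 bp, the median input count was 175.5 at Nr5a2, 278 at Bhlha15 and 201 at Xbp1, against 166 over the list. The lower ratios at Bhlha15 thus came with more input reads, and the part of that depth was not tested.

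Over whole windows, gaps included, ChIP reads exceeded input in all 3. The Nr5a2 window had 8253 ChIP and 4823 input reads, a ratio of 1.76 (exact 95% interval 1.70 to 1.83). The Bhlha15 window had 4877 and 3667, a ratio of 1.37 (1.31 to 1.43), and the Xbp1 window 4207 and 2489, a ratio of 1.74 (1.66 to 1.83). The excess of ChIP reads over scaled input was 11.2 reads per kb at Nr5a2, 9.40 at Bhlha15 and 11.9 at Xbp1. This is a net excess, in which stretches with fewer ChIP reads than scaled input count as negative. Stretches within 500 bp of a listed position held 91.4%, 116% and 101% of it. The order of the loci thus depends in part on reads away from the sites. Among all windows of the same length, 0.355%, 6.35% and 1.48% had a ratio as high, and the median ratio lay near 1 (0.989, 0.976 and 0.976).

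Compared pairwise over 3 pairs, the ratio at Nr5a2 was 1.29 times that at Bhlha15 (95% interval 1.22 to 1.36, Fisher's exact test, adjusted p = 2.35e-18). At Bhlha15 it was 0.787 times that at Xbp1 (0.737 to 0.841, Fisher's exact test, adjusted p = 1.12e-12). Nr5a2 and Xbp1 were not told apart, with a ratio of 1.01 (0.952 to 1.08, Fisher's exact test, adjusted p = 0.697). Reads at a site pile up together and are not independent, so these p-values are too small. With the 500 bp to each side of listed sites left out, Bhlha15 stood at 0.944 times Xbp1 (0.875 to 1.02) and that call was lost (Fisher's exact test, adjusted p = 0.138), while Nr5a2 was 1.14 times Bhlha15 (1.07 to 1.22, adjusted p = 1.06e-04).

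Nearly all of the excess lay close to the listed sites. The stretches within 500 bp of a listed position held 43.1% of ChIP and 6.26% of input reads of the Nr5a2 window, 36.8% and 7.55% at Bhlha15, and 46.3% and 5.62% at Xbp1. In what was left, the ratio of ChIP to input was 1.07 at Nr5a2 (1.03 to 1.11), 0.936 at Bhlha15 (0.891 to 0.983) and 0.991 at Xbp1 (0.935 to 1.05). The windows were thus near the level of input away from their sites, with Nr5a2 slightly above it and Bhlha15 slightly below.

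In a test of 1 kb bins, which are not chosen by the list, the share of bins called higher was above that of the genome at each locus. The list enters this test through the expected ratio, which was taken outside listed spans. Of 311 bins tested at Nr5a2, 17 (5.47%) were called higher in ChIP, as were 10 of 140 (7.14%) at Bhlha15 and 9 of 145 (6.21%) at Xbp1. Over chromosomes 1 to 19 and X, 1.73% of 2004567 bins were called higher (exact two-sided binomial test, Benjamini-Hochberg adjusted over all of these bins). The bins read the same ChIP library as the list and are no independent evidence of the sites. Bins were also deeper in the windows, with median input counts of 14 reads at Nr5a2, 26 at Bhlha15 and 16 at Xbp1. Over covered bins of the genome the median was 10. The part of depth in the share of bins called was not tested. Bins called lower in ChIP numbered 4 at Nr5a2 and 1 at each of the other loci, against 0.225% of the bins tested over these chromosomes. At Bhlha15, 8 of the 9 bins with a listed site were called, at Xbp1 7 of 7, and at Nr5a2 10 of 13. The highest bins held 1078 ChIP and 26 input reads at Nr5a2, 742 and 50 at Bhlha15, and 1090 and 20 at Xbp1.

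Some called bins held no listed site. Of these 11, 8 lay within 1 kb of a listed site. The other 3 lay further off, 2 of them in the Nr5a2 window. The bin from 138665001 to 138666000 had 87 ChIP and 15 input reads, a ratio of 5.97 (3.43 to 11.1), and was 50.3 kb from the nearest listed site. Its densest point, 138665750, had 62 reads of distinct position and strand within 100 bp, more than 16 of the 34 members had. The bin from 138897001 to 138898000 had 55 ChIP and 6 input reads, a ratio of 9.44 (4.07 to 26.8), and its densest point had 39 distinct reads, more than 8 members had. These points were picked as the densest of their bins, while members were counted at their listed position, which favours the bins. At Xbp1 the bin from 5423001 to 5424000 had 50 and 22 reads, a ratio of 2.34 (1.39 to 4.06, exact binomial test, adjusted p = 0.0435), 2.23 kb from a listed site. The 116 kb between the start of the Nr5a2 window and its first listed site thus held 1 bin called higher and the 4 bins called lower.

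**Figure D4:**
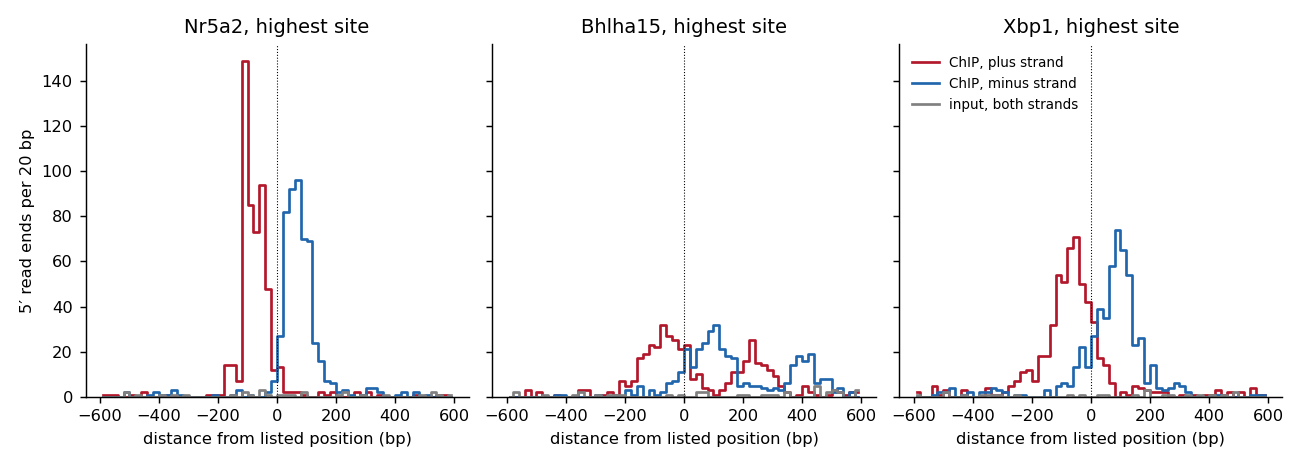
5′ read ends per 20 bp around the highest listed site of each locus, by distance in bp from the listed position, for ChIP reads of the plus and minus strands and for input reads of both strands. Plus-strand ends stand before and minus-strand ends after the position, and at Bhlha15 the partner site 322 bp away shows as a further pair of humps.

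At the highest sites, plus-strand and minus-strand reads piled up on opposite sides of the listed position. Among the 25 members with no listed neighbour within 500 bp, the median 5′ end lay 67 bp before the position on the plus strand and 70 bp after it on the minus strand. The distance between both medians ran from 90.5 to 190 bp, with a median of 140 bp. Plus-strand reads made up 38.1 to 63.0% of reads at these sites. The highest Nr5a2 site had the most reads, 990 within 100 bp, yet 278 of distinct position and strand, so it was rank 98 of the list by all reads and rank 331 by distinct reads. At the highest Xbp1 site these were 847 and 325, with ranks of 161 and 107, and at the highest Bhlha15 site 423 and 243, with ranks of 881 and 664. Repeated reads were 71.9%, 61.6% and 42.6% of ChIP reads at these 3 sites. The most reads at 1 position and strand were 15, 11 and 7, or 1.52%, 1.30% and 1.65% of the reads of the site. Over the 34 sites together 41.5% of ChIP reads were repeats, against 30.3% over the list. The Nr5a2 sites at 138756186 and 138758086, with fewer reads within 100 bp (367 and 342), had 40.3% and 43.0% repeats. The stretch within 100 bp holds a limited number of positions and strands. The parts of that limit and of amplification in these repeats were not tested.

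The authors' height followed the number of distinct reads less closely at a few members. At 144887838 in the Bhlha15 window the height was 24, with 72 distinct ChIP reads within 100 bp. At 145008717 in the same window these values were 23 and 70, and at 138756623 in the first Nr5a2 group 23 and 63. These 3 members had more distinct reads than 2 times their height, as did 2.67% of the list, and were picked after their values were seen. The Nr5a2 one had a listed neighbour 143 bp away, while the nearest listed sites to the others were 21649 and 5047 bp away.

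The edges of the windows decided which sites were counted. The nearest listed sites outside lay 25.3 kb before the Nr5a2 window (height 20) and 35.4 kb after it (height 50). At Bhlha15 they lay 13.8 kb before (height 42) and 12.9 kb after (height 150), and at Xbp1 34.2 kb before (height 51) and 178 kb after (height 25). The last sites inside lay 2.26 kb from the end at Nr5a2 (height 61) and 0.948 kb from the end at Bhlha15 (height 44). The first site inside the Xbp1 window lay 1.97 kb from its start (height 56).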

How the data were processed

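Each library was deposited by the authors as counts of single placed reads, 1 line and a value of 1 per read of 37 bp, with mm9 as the build, per the submitters' processing notes. The aligner, read filters and peak caller are not given in these sources. The authors deposited the peak list as a signal value per position with a span of 100 bp, per the file headers. Reads in a span were counted from the position onward, so the span is not centred on the position. Each 5′ end was moved 73 bp downstream. ChIP and input reads per site and per 1 kb bin (10 or more reads) were compared with exact two-sided binomial tests against 0.971 ChIP reads per input read, the ratio outside listed spans. The p-values were Benjamini-Hochberg adjusted over all sites or bins, with a threshold of 0.05. Ratios are scaled by 0.971, or by 0.925 for windows of 100 bp to each side, and an input of 0 was set to a floor of 3 reads. Window pairs were compared by Fisher's exact test. Amplified reads are not independent molecules, so intervals cover counting error only. The tests were tried on simulated counts of independent reads. Such counts hold no repeated or piled-up reads, so they cannot show the error rate in these data. By rule, the 3 highest sites and the lowest of each window, those not called, and up to 2 bins per window called higher over 1 kb from a listed site were named. Other sites were named after their values were seen. Members and lists were chosen with earlier results of these data known. A further list of acinar and secretory regulators was not used, as it needs gene positions on mm9. Python 3.11.15, NumPy 2.4.6, SciPy 1.17.1 and pandas 2.3.3 were used.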

Additional observations from a re-analysis of the deposited data

How the results depend on the processing

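No paired analysis was possible because each group had 1 library, and for the same reason no replicate could be left out. Counts of sites and of bins called higher stayed within 1.5 times under each alternative tried: 13 to 16 sites at Nr5a2, 9 or 10 at Bhlha15 and 8 at Xbp1, and 16 or 17, 8 to 10, and 8 or 9 bins. With heights of 50 or more, 8, 3 and 5 sites were left. With positions under 200 bp apart joined, the median spacing at Nr5a2 was 4329.5 bp. The ratio of whole windows moved past its counting interval under most alternatives. With 1 read per position and strand it was 1.53 at Nr5a2, 1.29 at Bhlha15 and 1.50 at Xbp1. Scaled by total reads it was 1.68 at Nr5a2 and 1.30 at Bhlha15. Cut by 25% of the length on each side, the windows gave 2.45 at Nr5a2, 1.40 at Bhlha15 and 2.41 at Xbp1. Without 500 bp to each side of listed sites the ratios were 1.07 at Nr5a2, 0.936 at Bhlha15 and 0.991 at Xbp1, in stretches that by construction hold no listed site. Scaled by 0.971, those of Bhlha15 and Xbp1 then lay under 1, though the interval at Xbp1 (0.935 to 1.05) includes 1. Scaling by 0.925, the ratio outside 100 bp to each side of listed positions, would raise both, so a level below input is not established at either. Bhlha15 over Xbp1 was then 0.944 and lost its call (Fisher's exact test, adjusted p = 0.138). Without 500 bp to each side of the highest site, chosen after seeing the data, they were 1.54, 1.16 and 1.30. Depth limits the ratio of single sites, since at most 8 input reads lay in a span.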
